A study of Homo sapiens with 3 samples.

Results

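The SR splicing factors studied here are 10 genes, SRSF1 to SRSF7, SRSF9, SRSF10 and SRSF11, picked by symbol from a read-count table of 48162 entries. Each symbol has a single entry, and all 10 are among the 12691 genes compared, those with a mean level of at least 1 CPM (read counts scaled to library size) over the libraries. The RNA came from HCT116, a line of colon cancer cells, in 3 libraries: untreated cells, cells 24 hours after transfection of siRNA (small interfering RNA) to CDK4, and cells kept for 24 hours in 1 µM palbociclib, which inhibits the kinases CDK4 and CDK6. Each group is 1 library, no library with a non-targeting siRNA or with drug solvent was analysed here, and both treated libraries are compared with the same untreated one. The question put to these genes is how their mRNA levels stand after CDK4 silencing and after CDK4/6 inhibition.

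SR proteins bind exons and their flanks through RNA recognition motifs (RRMs) and contact other splicing factors through a domain rich in arginine and serine, the RS domain. They help U1 and U2 snRNPs to find splice sites, and several also act in mRNA export and translation. Phosphorylation of the RS domain by SRPK and CLK kinases sets their location and activity. Many SR genes hold so-called poison exons: inclusion gives a transcript that is removed by nonsense-mediated decay, which lets the proteins limit their own mRNAs. GENCODE 29 lists at least 1 nonsense-mediated decay transcript for all 10 genes, against 35.6% of 19969 protein-coding genes. The deposited counts are per gene, so productive and poison-exon transcripts were not separated.

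Of the 10 SR mRNAs 6 were lower by at least 1.5-fold in the palbociclib library, against 25.3% of the 12691 genes. With the main scaling (TMM), SRSF9 was lower by less, SRSF4 and SRSF5 had intervals that included no change and SRSF11 was slightly higher. In the siRNA library none differed from untreated by 1.5-fold, where only 4.70% of all genes did so in either direction. Together the 10 genes took 0.252% of all reads in untreated cells, 0.239% with siRNA and 0.135% with palbociclib. On the TMM scale the summed level was at 0.912 of untreated with siRNA (95% interval 0.901 to 0.924) and at 0.617 with palbociclib (0.607 to 0.626). All brackets here hold exact intervals for counting error only: they say nothing of the spread between cultures, and reads are not independent molecules. No p-value was computed, so "higher" and "lower" describe these libraries and have no replicate check. With bulk RNA, fewer cells that express a gene and less RNA per cell cannot be told apart.

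The libraries held 20313597, 18349355 and 18020870 reads in the order untreated, siRNA and palbociclib, and the members had between 859 and 10283 reads each. CDK4 itself had 2689, 1059 and 1426 reads, so the siRNA library was at 0.42 of the untreated CDK4 level (0.391 to 0.451). Of 9 epithelial markers, CDX1 had no read in any library and VIL1 had reads only with palbociclib, at 0.308 CPM, whereas EPCAM lay between 259 and 332 CPM. The summed epithelial level was 4945 to 5326 CPM, but single markers moved in both directions: in the order untreated, siRNA and palbociclib the keratin gene KRT8 was at 3258, 3076 and 1810.2 CPM, KRT19 at 1270.4, 1331 and 2132 CPM, and the claudin gene CLDN4 at 151, 176 and 374 CPM. Their part in the SR values was not tested. Blood markers summed to at most 3.2 CPM, with PTPRC and CD3E at 0 and the sum made up of CD14, which had 0, 3 and 52 reads; fibroblast markers summed to at most 22.5 CPM, nearly all COL1A1, and endothelial markers to at most 0.801 CPM.

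The stretches before the transcription starts of SRSF1 and SRSF7, the most reduced members with palbociclib, and of SRSF10, the only searched member with an E2F motif, are shown because CDK4 and CDK6 act on E2F factors through RB. Each run is the 250 bases before a RefSeq start on GRCh38.p14, read 5′ to 3′ on the gene's strand, with a motif in capitals; SRSF7 has another RefSeq start, which is not shown.
SRSF1, chr17:58007247-58007496 (- strand): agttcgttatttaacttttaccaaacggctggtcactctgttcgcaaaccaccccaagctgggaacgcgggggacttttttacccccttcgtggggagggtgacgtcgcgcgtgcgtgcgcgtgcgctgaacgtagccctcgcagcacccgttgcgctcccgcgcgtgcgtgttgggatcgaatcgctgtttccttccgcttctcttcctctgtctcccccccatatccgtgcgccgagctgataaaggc
SRSF7, chr2:38751362-38751611 (- strand): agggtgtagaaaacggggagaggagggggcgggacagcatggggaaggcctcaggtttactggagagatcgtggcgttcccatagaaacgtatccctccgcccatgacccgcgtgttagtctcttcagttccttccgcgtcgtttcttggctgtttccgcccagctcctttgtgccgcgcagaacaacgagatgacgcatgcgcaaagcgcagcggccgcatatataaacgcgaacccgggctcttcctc
SRSF10, chr1:23980328-23980577 (- strand): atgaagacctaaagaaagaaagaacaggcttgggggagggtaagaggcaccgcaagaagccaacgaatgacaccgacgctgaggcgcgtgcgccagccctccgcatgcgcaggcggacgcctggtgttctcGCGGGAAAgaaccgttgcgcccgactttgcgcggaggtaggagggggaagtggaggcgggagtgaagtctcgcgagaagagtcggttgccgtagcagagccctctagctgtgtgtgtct

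SRSF2, which was lower with palbociclib, had no RefSeq window in the source used and was not searched. RefSeq windows of 250 bases before to 50 after the start were found for the other 9 of the 10 members, 11 windows in all. They were searched on both strands for 4 spellings of the E2F motif, TTTCCCGC, TTTGGCGC, TTTCGCGC and TTTGCCGC, and for the E-box CACGTG, which MYC and other factors bind. SRSF10 carried the only E2F match, GCGGGAAA, which begins at position -119 counted back from the start, while 3.31% of all 35116 windows held such a match. No member window held an E-box, against 7.26% of all windows. A match is a run of letters, not a shown binding site, and the absence of one in these windows says nothing about the factors.

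Levels of different genes were compared per length, with the deposited FPKM. In the untreated library SRSF3 was first at 246 FPKM (242 to 251), followed by SRSF9 at 221 (217 to 226), SRSF1 at 163 (160.03 to 166) and SRSF6 at 101 (98.7 to 103). SRSF7 at 57 and SRSF4 at 53.7 came next, and their intervals overlapped. SRSF11, SRSF10 and SRSF2 followed at 38.5, 38.3 and 37.3 FPKM with overlapping intervals, and SRSF5 was last at 24.4. The highest member was thus 10.1 times the lowest.

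The siRNA library had the same first 7 members in the same order, from SRSF3 at 228 FPKM to SRSF11 at 40.9. In the palbociclib library the order differed. SRSF9 was first at 149.8 FPKM (146 to 154) and SRSF3 second at 127 (123 to 131). SRSF1, which ranked right after these in the other libraries, was at 48.6 FPKM (46.7 to 50.5), and its interval overlapped those of SRSF6 at 51.9 and SRSF4 at 46.1. SRSF2 was last at 16.5 FPKM, level by its interval with SRSF10 at 18.1.

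**Figure D1:**
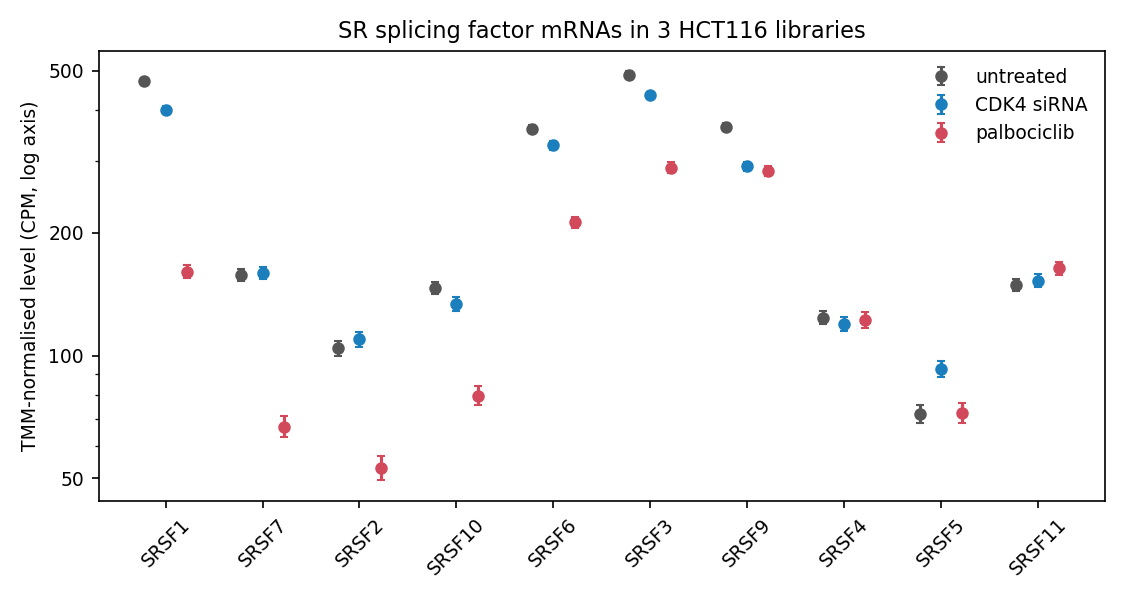
TMM-normalised level in CPM (log axis) of each SR gene in the untreated, CDK4 siRNA and palbociclib libraries, with genes ordered from the lowest to the highest palbociclib ratio. Each point is 1 library and each bar an exact 95% Poisson interval; the palbociclib points of SRSF1, SRSF7, SRSF2, SRSF10, SRSF6 and SRSF3 lie well below both other points.

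Among SR proteins with a pair of RRMs, SRSF1 stood furthest from the untreated level with palbociclib; with siRNA SRSF5 and SRSF9 stood further. SRSF1 (ASF/SF2) is a general activator of splicing, a shuttling protein and a known oncoprotein. Its level was 471 CPM (462 to 480.3) in untreated cells, 401 CPM (392 to 409.5) with siRNA and 161 CPM (155 to 167) with palbociclib. The palbociclib library thus stood far below both others, and the siRNA library slightly below the untreated one. The ratio to untreated was 0.851 with siRNA (0.826 to 0.876) and 0.341 with palbociclib (0.327 to 0.356).

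SRSF9 is the closest relative of SRSF1 and has a short RS domain. Its level was 365 CPM (357 to 373) in untreated cells, 291 CPM (284 to 299) with siRNA and 283 CPM (275 to 292) with palbociclib. Both treated libraries were lower than the untreated one, at 0.798 (0.771 to 0.826) and 0.777 (0.748 to 0.806). How they stood to each other depended on the scaling: the direct ratio of palbociclib to siRNA was 0.973 (0.935 to 1.01) with TMM and 0.816 (0.785 to 0.849) with library totals, where the ratios to untreated were 0.829 and 0.677. SRSF9 and SRSF1 therefore parted: SRSF1 had 1.29 reads for each SRSF9 read in the untreated library and 0.567 in the palbociclib library, a comparison that does not depend on library scaling.

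SRSF4, SRSF5 and SRSF6 form a closely related subgroup, of which SRSF6 alone was lower by at least 1.5-fold with palbociclib. SRSF6, a regulator of exon inclusion, was at 359.6 CPM (352 to 368) in untreated cells, 328 CPM (320.5 to 337) with siRNA and 212 CPM (205 to 219) with palbociclib. Its ratio was 0.913 with siRNA (0.883 to 0.944) and 0.59 with palbociclib (0.567 to 0.614). SRSF4 was level across libraries on the TMM scale, at 124 CPM (119 to 129), 119 CPM (115 to 124) and 122 CPM (117 to 128), and both of its ratios had intervals that included 1. With library totals its palbociclib ratio was 0.858 (0.809 to 0.91). With DESeq2 size factors its siRNA ratio was 0.939 (0.888 to 0.994).

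SRSF5 showed another pattern. It was at 71.8 CPM (68.2 to 75.5) in untreated cells, 92.7 CPM (88.5 to 97) with siRNA and 72.2 CPM (68.1 to 76.4) with palbociclib. The siRNA library alone was higher, with a ratio of 1.29 (1.21 to 1.38), and SRSF5 was the only SR gene whose interval lay above 1 there; with library totals in place of TMM factors SRSF2, SRSF7 and SRSF11 joined it, at 1.09, 1.05 and 1.06. With palbociclib the ratio was 1.01 (0.931 to 1.09).

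The SR proteins with a single RRM include the other strongly reduced member, SRSF7. SRSF7 (9G8) also carries a zinc knuckle and, like SRSF3, serves as an adaptor for the mRNA export receptor NXF1. Its level was 157 CPM (152 to 163) in untreated cells, 159.5 CPM (154 to 165) with siRNA and 66.8 CPM (62.9 to 70.9) with palbociclib. The siRNA ratio of 1.01 had an interval that included 1 (0.965 to 1.06), while the palbociclib ratio was 0.425 (0.396 to 0.455).

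SRSF3 (SRp20) is the smallest SR protein, and it was the most abundant SR mRNA per length in the untreated and siRNA libraries. It was at 489.6 CPM (480.2 to 499) in untreated cells, 436 CPM (426 to 445) with siRNA and 289 CPM (281 to 298) with palbociclib. The libraries did not overlap within counting error, and the ratios to untreated were 0.89 (0.864 to 0.915) and 0.591 (0.571 to 0.612). SRSF3 and SRSF6 kept nearly the same proportion to each other, with 1.36 SRSF3 reads for each SRSF6 read in both the untreated and the palbociclib library.

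SRSF2 (SC35), which stays in the nucleus and marks nuclear speckles, was at 104 CPM (99.9 to 109) in untreated cells, 109.8 CPM (105 to 115) with siRNA and 52.9 CPM (49.4 to 56.6) with palbociclib. The siRNA interval overlapped the untreated one, and the palbociclib library lay below both. Its palbociclib ratio was 0.508 (0.469 to 0.55). MFSD11 overlaps exons of SRSF2 on the opposite strand and had 182, 181 and 409 reads in the same order. The sources used here do not say whether reads were counted by strand, so reads of the overlap could not be assigned to either gene.

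SRSF10, a sequence-dependent activator that acts as a splicing repressor when dephosphorylated, was at 147 CPM (141 to 152) in untreated cells, 134 CPM (129 to 139) with siRNA and 79.7 CPM (75.4 to 84.2) with palbociclib. Its ratio was 0.912 with siRNA (0.865 to 0.961) and 0.544 with palbociclib (0.509 to 0.581). SRSF11 (p54) went the other way: it was at 149 CPM (144 to 154) in untreated cells, 153 CPM (147 to 158) with siRNA and 164 CPM (158 to 170.1) with palbociclib. The palbociclib ratio of 1.1 (1.04 to 1.16) was the only SR ratio to untreated above 1 with an interval that excluded 1 in that library, and with plain library totals it was 0.957 (0.908 to 1.01).

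**Figure D2:**
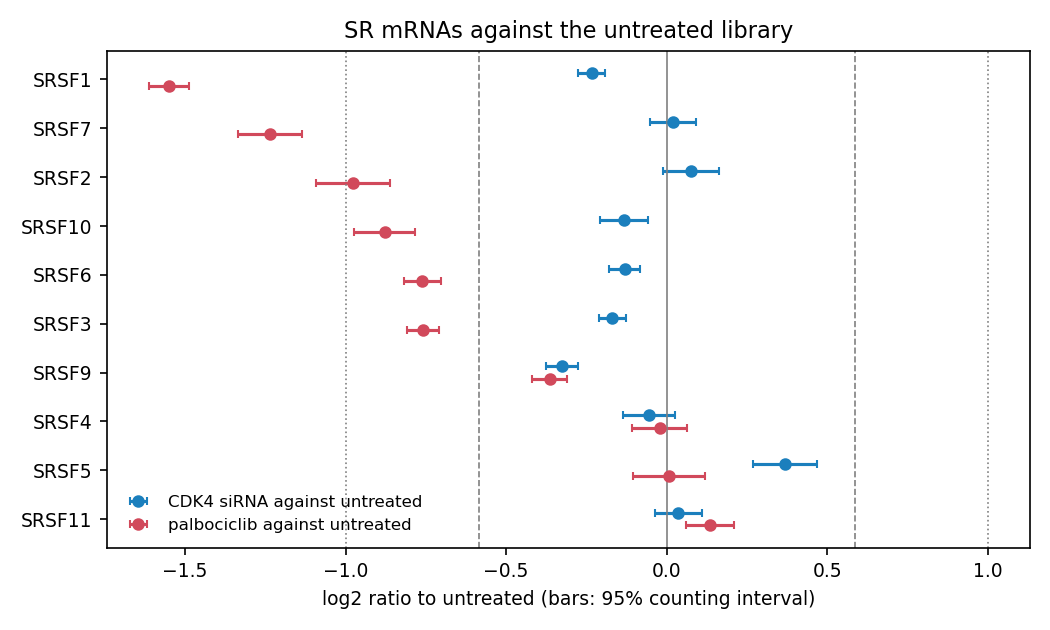
Ratio to the untreated library on a log2 axis, with 95% counting intervals, for each SR gene with CDK4 siRNA and with palbociclib; dashed lines mark 1.5-fold and dotted lines 2-fold. With palbociclib 6 genes lie left of the 1.5-fold line, and with siRNA none does.

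Counted by size, no SR gene passed either rule with siRNA. A gene counts as higher or lower by the 2-fold rule when its log2 ratio is at least 1 in size and its interval excludes 1, and the 1.5-fold rule is set likewise. By these rules 1.22% and 4.70% of the 12691 genes passed with siRNA in either direction. The siRNA intervals lay below 1 for 5 SR genes, against 23.7% of all genes and 42.8% of the 4208 genes at a mean of at least 50 CPM. They lay above 1 for 1 SR gene, against 17.7% and 20.3%. Every SR gene was above that floor of 50 CPM, but the 4208 genes were not matched to the SR genes in level. The median log2 ratio of the 10 genes was −0.09, against −0.02 over all genes and −0.06 over those 4208 genes.

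With palbociclib 2 of 10 SR genes, SRSF1 and SRSF7, were lower by the 2-fold rule, against 13.6% of all genes. Among genes at a mean of at least 50 CPM, 6.96% were lower by that rule. By the 1.5-fold rule 6 of 10 were lower, against 25.3% of all genes and 16.9% of those at a mean of at least 50 CPM, and none was higher, against 20.3% of all genes. Intervals lay below 1 for 7 members and above 1 for 1, against 41.9% and 36.0%. Their median log2 ratio was −0.76, where it was −0.07 over all genes and 0.06 over genes of at least 50 CPM. By architecture, 4 of 5 members with a single RRM and 2 of 5 with a pair of RRMs were lower by the 1.5-fold rule. Their log2 ratios overlapped widely, from −1.23 to 0.14 with a single RRM and from −1.55 to 0.0078 with a pair. A link to architecture was not tested. The 6 reduced genes spanned untreated levels from 104 to 489.6 CPM.

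**Figure D3:**
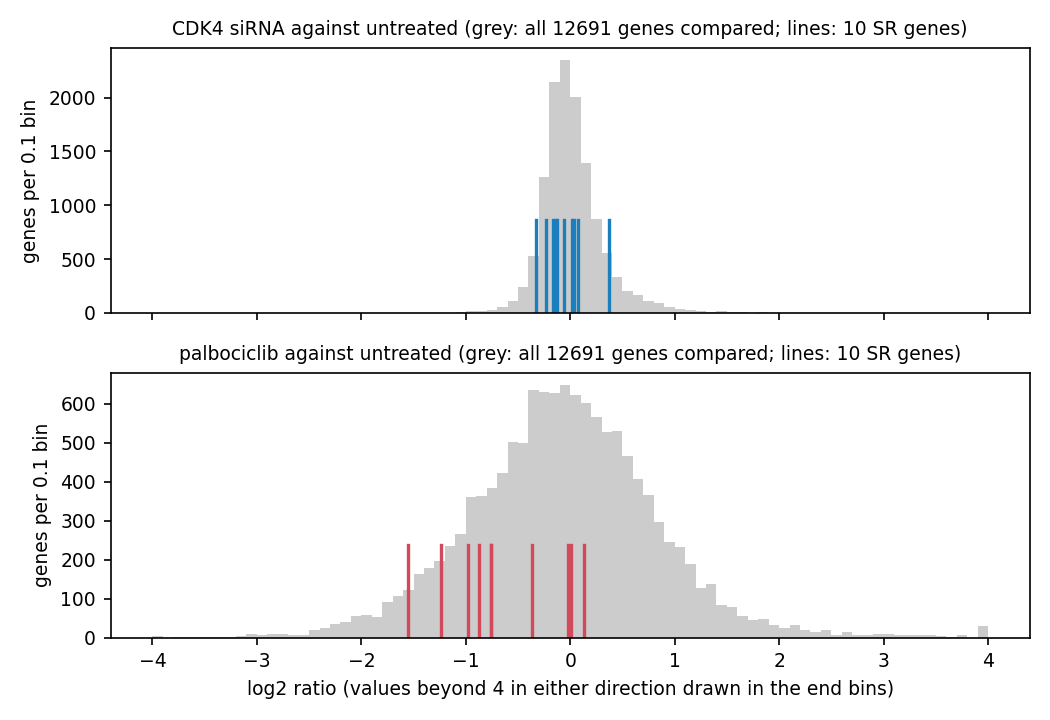
Number of genes per log2 ratio bin for all 12691 genes compared (grey) and the 10 SR genes (coloured lines), with CDK4 siRNA above and palbociclib below, both against untreated. The SR genes lie inside the narrow siRNA distribution, while with palbociclib they lie between −1.55 and 0.14, mostly in the left part of a wide distribution.

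Library scaling bears on the palbociclib ratios. With library totals in place of TMM factors the median of all genes moved from −0.07 to −0.27, higher genes made up 26.0% of all 2-fold calls in place of 42.4%, and 4 SR genes passed the 2-fold rule as lower: SRSF1, SRSF7, SRSF2 at 0.443 and SRSF10 at 0.474. Under that scaling 2420 of the 12691 genes were lower by the 2-fold rule. On that scale SRSF4 and SRSF5 were at 0.858 (0.809 to 0.91) and 0.876 (0.811 to 0.946). Mitochondrial mRNAs took 6.53% of the palbociclib reads against 4.02% of untreated and 3.85% of siRNA reads, and the nuclear RNA MALAT1 took 0.0749% against 0.00667% and 0.012%. With totals that leave out mitochondrial, ribosomal protein, 28S and MALAT1 reads, SRSF1 was at 0.312 and SRSF7 at 0.389 of untreated, and higher genes made up 31.0% of calls. The part of these composition differences in the results was not tested beyond that.

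The make-up of the SR mRNA pool is free of library scaling. SRSF1 made up 16.6% of the summed FPKM of the 10 genes in untreated cells, 15.7% with siRNA and 9.04% with palbociclib. SRSF7 made up 5.81%, 6.55% and 3.92%. In contrast, SRSF9 made up 22.6%, 20.1% and 27.9%, SRSF4 5.47%, 5.86% and 8.58%, and SRSF11 3.92%, 4.47% and 6.85%. SRSF3 held close to a constant share, at 25.1%, 24.9% and 23.6%. The largest swing between members was that of SRSF1 against SRSF11: SRSF1 had 3.16 reads for each SRSF11 read in untreated cells and 0.982 with palbociclib.

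**Figure D4:**
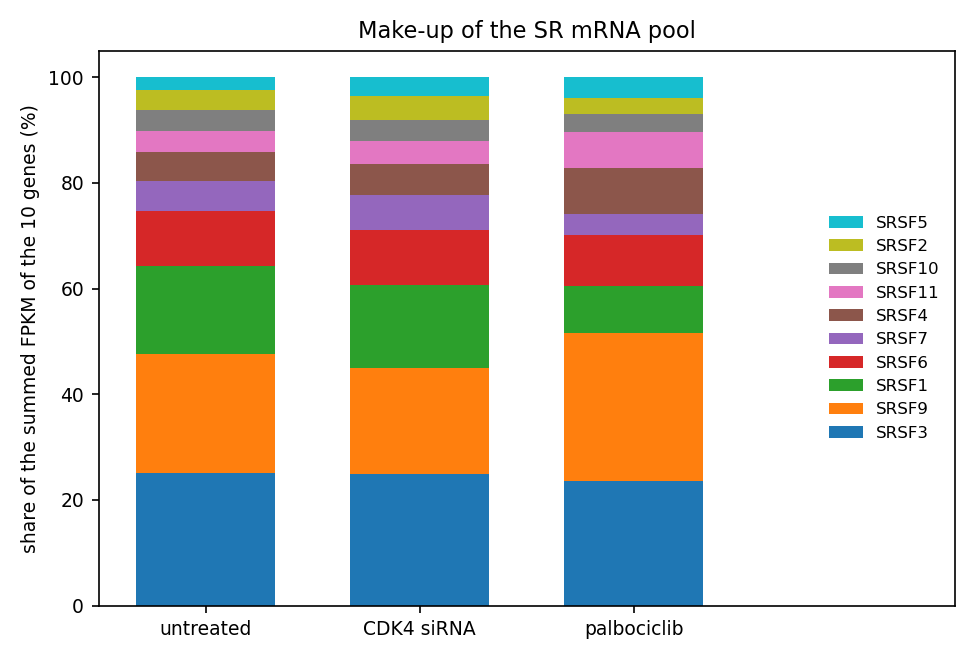
Share of each SR gene in the summed FPKM of the 10 genes, in percent, stacked for each library. The SRSF1 share shrinks from 16.6% to 9.04% between the untreated and palbociclib libraries, while the SRSF9 share grows from 22.6% to 27.9%.

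The treated libraries were also compared with each other, a contrast of 2 single libraries that also carries transfection and drug solvent. Lower with palbociclib by the 2-fold rule were 3 of 10 members, against 13.8% of all genes: SRSF1 at 0.401 of the siRNA level (0.384 to 0.42), SRSF7 at 0.419 (0.391 to 0.449) and SRSF2 at 0.482 (0.445 to 0.522). By the 1.5-fold rule 6 were lower, against 25.8% of all genes and 15.2% of those at a mean of at least 50 CPM, with SRSF3 at 0.665, SRSF6 at 0.646 and SRSF10 at 0.596. These 6 were also the members lower against untreated, but the calls depended on the setting. With DESeq2 size factors 4 passed, since SRSF3 was at 0.692 and SRSF6 at 0.673, and 2 in place of 3 passed the 2-fold rule, with SRSF2 at 0.502. With a length trend subtracted 5 passed, without SRSF3, and with library totals SRSF5 joined at 0.654, which made 7. The shares of all genes above hold for TMM and not for these settings. All genes lower by the 2-fold rule numbered 1581 with DESeq2 size factors, 1741 with the length trend subtracted and 2632 with library totals, against 1753 with TMM. With library totals the median log2 ratio of all genes was −0.33, against −0.08 with TMM. On the TMM scale SRSF5 was at 0.779 (0.723 to 0.839) of the siRNA level, since its siRNA level was the highest of the 3 libraries. Both palbociclib comparisons share the palbociclib library, and their values are not independent.

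Other SR and SR-like factors lay on the same side as the reduced members with palbociclib. TRA2A and TRA2B, homologues of the Drosophila sex-determination factor Transformer-2, were at 0.372 (0.335 to 0.412) and 0.363 (0.342 to 0.385) of untreated. SRSF8, which derives from a retrotransposed copy of SRSF2, was at 0.659 (0.6 to 0.722). These 3 were all that could be compared of a list of 4, all 3 were lower by the 1.5-fold rule (2 with DESeq2 size factors), against the 25.3% of all genes and 16.9% of genes at a mean of at least 50 CPM given above, and with siRNA they lay between 0.94 and 0.968. SRSF12 had 1, 2 and 3 reads and was not compared.

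Genes of enzymes that act on SR proteins, listed together with a gene of their nuclear import, were split with palbociclib. Of 10 genes compared, 3 were higher and none lower by the 2-fold rule, where 1269 of the 12691 genes were higher and 13.6% lower. By the 1.5-fold rule 4 were higher and 1 lower, against 20.3% and 25.3% of all genes. The median log2 ratio was 0.07, or −0.13 with library totals, where all genes were at −0.07 and −0.27. No member passed with siRNA. The 3 genes higher by the 2-fold rule were CLK kinases, which phosphorylate SR proteins in the nucleus: CLK1 at 6.33 (5.54 to 7.25), from 263 against 1286 reads, CLK4 at 4.59 (3.73 to 5.7) and CLK3 at 3.04 (2.82 to 3.27). The remaining CLK gene, CLK2, was at 1.31 (1.16 to 1.49) and passed neither rule. The kinase gene SRPK1, whose product phosphorylates SR proteins in the cytoplasm, was at 0.717 (0.672 to 0.764). PRPF4B was at 0.61 (0.561 to 0.663) and the phosphatase gene PPP1CA at 0.759 (0.727 to 0.792).

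SR-related coactivators, which carry RS-rich stretches but are not classical SR proteins, included no member lower by the 1.5-fold rule with palbociclib, against 25.3% of all genes. Of 21 compared members 5 were higher by that rule, a share near the 20.3% of all genes and the 919 of 4208 genes at a mean of at least 50 CPM. Intervals lay above 1 for 15 and below 1 for 2, where 36.0% of all genes and 2040 of those 4208 genes lay above 1, and the median log2 ratio was 0.35. By the 2-fold rule 1 was higher and none lower, against 1269 of the 12691 genes and 13.6%. With library totals 2 were higher by the 1.5-fold rule and the median was 0.15, against −0.27 over all genes. The shares of all genes above hold for TMM and not for that scaling. LUC7L3, a U1-associated factor, was at 2.28 (2.17 to 2.39), SCAF4 at 1.78 (1.64 to 1.94) and SCAF8 at 1.68 (1.53 to 1.85). The lowest members were RSRC1 at 0.785, SRRM1 at 0.865 and RBM23 at 0.972, the last with an interval that included 1. With siRNA the median was −0.02, and 0.03 with library totals.

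The hnRNP genes, whose proteins often act against SR proteins at exons, had a median log2 ratio of −0.38 with palbociclib and of −0.11 with siRNA. With palbociclib 5 of 24 were lower and 1 higher by the 2-fold rule, where 13.6% of all genes and 6.96% of those at a mean of at least 50 CPM were lower and 1269 of the 12691 genes were higher. By the 1.5-fold rule 9 were lower and 1 higher, against 25.3% and 20.3% of all genes. With library totals the median was −0.58, against −0.27 over all genes. The furthest were HNRNPD (AUF1), at 0.189 of untreated (0.18 to 0.198), HNRNPH1 at 0.265 (0.252 to 0.278) and HNRNPH3 at 0.368 (0.34 to 0.399). HNRNPH2, a close relative of HNRNPH1, was at 2.34 (2.18 to 2.51), PCBP2 at 1.33 (1.25 to 1.41) and HNRNPC at 1.27 (1.25 to 1.29). Reads of close paralogues such as HNRNPH1 and HNRNPH2 can be shared, so these values are uncertain.

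**Figure D5:**
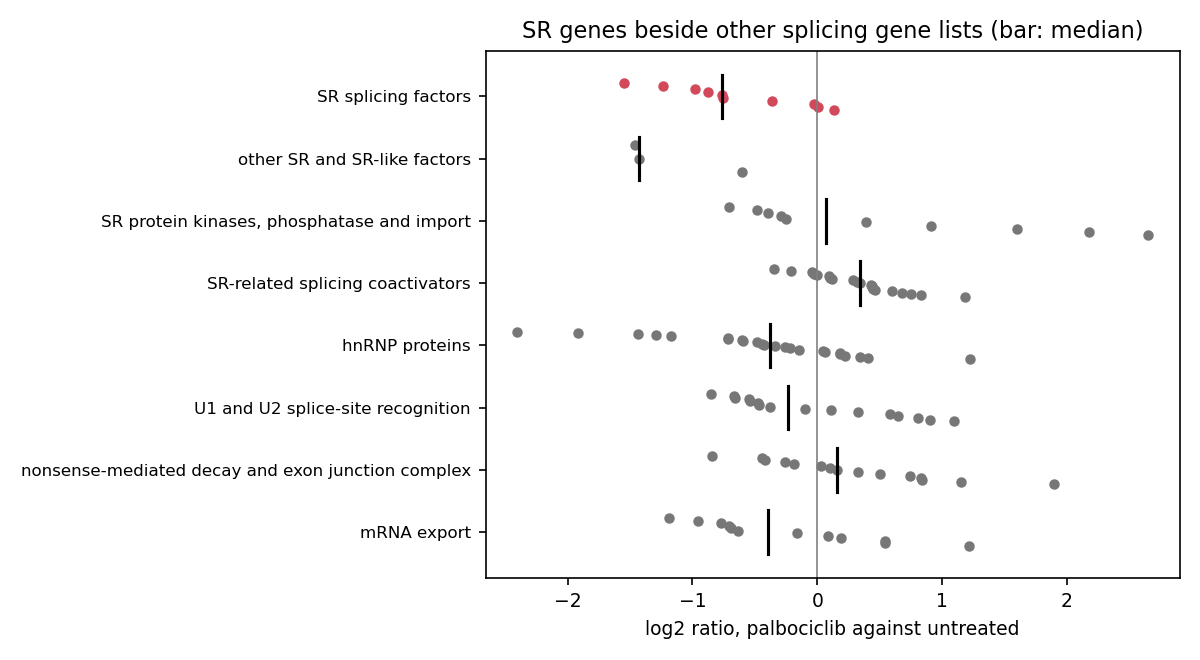
Log2 ratio of palbociclib to untreated for each compared gene of the SR family and of the other splicing gene lists, 1 point per gene, with the median as a bar. The SR genes have a median of −0.76, the SR-related coactivators 0.35 and the hnRNP genes −0.38.

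The genes closest in pattern to the extreme members were found by the Euclidean distance between their log2 ratios with siRNA and with palbociclib, over 7238 other genes at a mean of at least 20 CPM. For SRSF1 these were MIPEP, ALDH7A1, DECR1, TMPO and GPD2, at distances of 0.0254 to 0.0447. For SRSF11 they were GOPC, VPS4A, POMP, DCLRE1B and PANK2, at distances of 0.00147 to 0.011. Likeness over 3 libraries rests on 2 ratios that share the untreated library.

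Reads can be shared with pseudogenes. RefSeq names 13 pseudogenes for 7 of the 10 members, 5 of them for SRSF3, and none for SRSF4, SRSF5 or SRSF7. The table holds 3 of them, among which SRSF9P1 had 4, 1 and 0 reads and SRSF1P1 and SRSF10P1 had none. GATC overlaps exons of SRSF9 on the opposite strand and had 349, 330 and 365 reads, where SRSF9 had 4601 to 7665. As with SRSF2, reads of the overlap could not be assigned to either gene, since the strand setting is not given.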

How the data were processed

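Total RNA from 3 HCT116 cultures, 1 library per group, was sequenced on the Illumina HiSeq platform, per the labels' protocols. The authors deposited whole-number read counts per gene symbol and FPKM values, scaled per gene length and library total. HTSeq 0.6.1, DESeq and the hg19 build are named in the submitters' processing notes; aligner, annotation and strand setting: not given in the sources used here. The 29 date-like symbols, with 0.148% to 0.201% of reads, stayed in the totals. For a repeated symbol the entry richest in reads was used.

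Counts were scaled with TMM factors (edgeR 4.0.16, R 4.3.3), which were 1.03, 1.07 and 0.901 for untreated, siRNA and palbociclib. Log2 ratios used a prior count of 2, and ratios printed without a log used none. Ratio intervals are exact 95% Clopper-Pearson intervals and level intervals exact Poisson ones. The ratio code was tested on simulated data. With 1 library per group no test was possible. The members, gene lists, protein architecture groups and rules were chosen with earlier results of these data known. Genes named are all members, CDK4, up to 3 highest and 3 lowest palbociclib ratios of each list at a mean of at least 5 CPM, and the 5 nearest patterns to the highest and lowest member. CLK2 was named besides, as the remaining CLK gene. Other splicing genes came from 7 lists. Promoter windows are RefSeq's on GRCh38.p14, a build other than that of the counts. DESeq2 1.42.0 size factors and 8 other settings served as alternatives.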

Additional observations from a re-analysis of the deposited data

How the results depend on the processing

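Of 9 planned settings, library totals, reduced totals and FPKM moved most palbociclib values; subtracting a length trend moved SRSF3 from −0.76 to −0.65 and SRSF9 from −0.36 to −0.24 against untreated, and DESeq2 size factors changed size-rule calls of SR genes against siRNA and none against untreated. The median log2 ratio of the 10 SR genes against untreated was −0.96 with library totals or deposited FPKM. It was −0.89 with totals without mitochondrial, ribosomal protein, 28S and MALAT1 reads, and 4 members passed the 2-fold rule under all 3 settings. Over all genes these medians were −0.27 (library totals or FPKM) and −0.20 (those reduced totals), against −0.07 with TMM. All genes lower by the 2-fold rule numbered 2420, 2484 and 2175 with library totals, FPKM and reduced totals, against 1722 with TMM. Against siRNA the SR median was −0.86 with library totals or FPKM, −0.78 with the reduced totals and −0.55 with DESeq2 size factors. All genes there had medians of −0.33, −0.24 and −0.02, against −0.08 with TMM. SRSF11 changed sign: its log2 ratio to untreated was −0.063 with library totals and −0.064 with FPKM, and to siRNA −0.15 with either and −0.072 with the reduced totals. Other members changed sign as well. Among them, with library totals SRSF5 with palbociclib went from 0.0078 to −0.19 against untreated and SRSF4 from 0.033 to −0.22 against siRNA. With DESeq2 size factors SRSF9 with palbociclib went from −0.04 to 0.019 against siRNA. With siRNA, 34 genes of all those compared passed the 2-fold rule at a mean of at least 5 CPM and 539 without a filter. At a mean of at least 50 CPM, a setting chosen after seeing the data, 2 passed with siRNA, 688 with palbociclib against untreated and 649 against siRNA. Higher genes among palbociclib calls against untreated were 42.4% in the main analysis and 57.4% at that level. Ordering by CPM instead of FPKM changed the rank of 5, 7 and 8 members in the untreated, siRNA and palbociclib libraries. No paired analysis was possible because each group has 1 library. Leaving out a replicate was not possible for the same reason, and genes with few reads limit the unfiltered counts.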

Other observations

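Genes of U1 and U2 splice-site recognition, the machinery that SR proteins recruit, had a median log2 ratio of −0.24 with palbociclib, and of −0.44 with library totals. Over all genes these medians were −0.07 and −0.27. By the 1.5-fold rule 4 of 16 were higher and 3 lower, near the 20.3% and 25.3% of all genes. With library totals 7 were lower, but those shares of all genes hold for TMM and not for that scaling. By the 2-fold rule 1 was higher and none lower, against 1269 of the 12691 genes and 13.6%: SF3A2, a subunit of the U2 snRNP, was at 2.14 of untreated (2.07 to 2.2), and with library totals it did not pass. SF3B4 was at 1.87 and SF1, the branch point binding protein, at 1.75, while SF3B3 was at 0.555, SNRPC at 0.631 and SNRPA1 at 0.634. With siRNA no member passed and the median was −0.10.

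Genes of nonsense-mediated decay and the exon junction complex, through which poison-exon transcripts of SR genes are removed, had a median of 0.16 with palbociclib, and of −0.04 with library totals. All genes had medians of −0.07 and −0.27 on these scales. Of 15 members 2 were higher by the 2-fold rule with TMM, a count close to the background of 1269 in 12691 genes. With library totals 1 was higher, where 852 of the 12691 genes were. By the 1.5-fold rule with TMM 5 were higher and 1 lower, against 20.3% and 25.3% of all genes. The 2 members higher by the 2-fold rule with TMM were SMG1, the kinase that phosphorylates UPF1, at 3.72 (3.52 to 3.93) and UPF3B at 2.23 (2.01 to 2.48). UPF2 was at 1.79. The lowest were MAGOHB at 0.554, CASC3 at 0.738 and SMG8 at 0.748. SMG1 has near-identical partial copies in the genome, so its reads are uncertain. With siRNA the median was 0.03, or −0.0033 with DESeq2 size factors, and no member passed.

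Genes of mRNA export had a median of −0.40 with palbociclib, and of −0.59 with library totals, where all genes were at −0.07 and −0.27. By the 1.5-fold rule 6 of 12 were lower and 1 higher, against 25.3% and 20.3% of all genes. By the 2-fold rule 1 was lower and 1 higher, against 13.6% and 1269 of the 12691 genes. THOC3 was at 0.438, THOC6 at 0.516 and ALYREF, an adaptor of NXF1, at 0.585. NXF1 was at 1.45 (1.35 to 1.57), CHTOP at 1.46 and DDX39B at 2.34 (1.92 to 2.86). DDX39B was also at 1.96 with siRNA (1.61 to 2.4), the only gene of the 101 compared in these lists to pass the 1.5-fold rule there. It had 159 reads in the untreated library, and it lies in the MHC region, of which hg19 holds alternative haplotype copies, so its reads are uncertain.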
